A study of Mus musculus with 58 samples.

Results

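Removal of the Polycomb-recruiting region of Xist was examined in cells that already carried a mutated SPOC domain of SPEN, after 6 days of Xist induction in cultures on the way to neural precursor cells (NPC). The 4 libraries, of 58 in the series, were chosen by their titles: DelPID_SPOC clones A8 and G3 against SPOC clones D9 and H1. All were made from chromatin-associated RNA (ChrRNA-seq) of female mouse embryonic stem (ES) cell derivatives that are hybrids of a domesticus-type strain (Dom) and castaneus (Cast), so that fragments over sequence differences show which X chromosome they came from. In all of them Xist lies on the Dom X under a promoter switched on by doxycycline, given at 1 ug/mL, and both groups carry the SPOC mutation. DelPID_SPOC was made by adding the SPOC mutation to a DelPID line, whose Xist lacks the B-repeat and most of the C-repeat. The labels of its libraries name the SPOC mutation only in their titles. Each replicate is 1 culture of 1 clone, and the study describes clone G as tetraploid, with more than 1 copy of each X. Libraries of the same clones in ES cells before induction (day 0) and on day 1, and in NPC cultures on day 3, entered the fits, together with SPOC clone C11, which had ES libraries here. WT and DelPID NPC libraries, without the SPOC mutation, were used for comparison.

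Xist RNA coats the X chromosome from which it is made and silences its genes. SPEN binds the A-repeat of Xist, and its SPOC domain contacts the NCoR and SMRT corepressors, which activate the histone deacetylase HDAC3. A separate stretch of Xist, the B and C repeats, binds hnRNPK and through it a PRC1 complex with PCGF3 or PCGF5, which ubiquitinates histone H2A and leads to recruitment of other Polycomb complexes, among them PRC2, the H3K27 methyltransferase. The comparison asks how much of the silencing that goes on without a working SPOC domain is lost when the Polycomb-recruiting region is gone as well.

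The reference sequence of the B-repeat is shown because it is the element absent from the Xist of the DelPID_SPOC clones. In the GENCODE transcript Xist-201, the densest run of the letters GCCCC, which begin most units of the repeat, was found at bases 2860 to 2996 of 17946 and held 21 of the 30 matches in the transcript (sense strand only). It lies in exon 1, at chrX:103480259-103480395 on the minus strand of GRCm38, the build of the files. The ends of the deletion itself are not given in the sources used here, and the capitals mark each GCCCC.
Xist B-repeat: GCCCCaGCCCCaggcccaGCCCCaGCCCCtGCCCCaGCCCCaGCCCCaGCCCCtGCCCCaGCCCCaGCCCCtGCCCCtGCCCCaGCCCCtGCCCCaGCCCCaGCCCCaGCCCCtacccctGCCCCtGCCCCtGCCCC

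The libraries held 18.97 M (A8), 14.8 M (G3), 12.9 M (D9) and 11.3 M (H1) fragments, and an X-linked gene had a median of 292, 215, 142 and 114 allelic fragments. At these depths the 95% Wilson interval of a gene's Dom share had a median half-width of 5.57 points in A8, 6.42 in G3, 7.08 in D9 and 7.77 in H1, which covers counting error only. Counts of the replicates differed beyond sampling noise, since chi-square divided by its degrees of freedom was 62.7 between A8 and G3 and 16.2 between D9 and H1. The Dom shares of the autosomes marked the clones, and 1 label did not follow them. Over 19 autosomes, the chromosome medians of A8 and G3 lay nearest to their own day 0 libraries, with root mean square differences of 0.683 and 0.649 points. The NPC day 6 library labelled D9 differed by 2.31 points from the ES library labelled D9 but by 0.562 points from that of H1, and the library of H1 differed by 0.834 points from its own day 0. The day 3 library labelled D9 showed the same, at 2.24 and 0.609 points. The SPOC libraries may therefore represent fewer than 2 clones, and results are also given without the library labelled D9 or without its ES libraries where they rest on them.

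Xist was induced from the Dom allele in both groups. Its level at NPC day 6 was 6588 CPM in A8, 6778 in G3, 5413 in D9 and 4723 in H1, where CPM is the gene's fragment count relative to the library size after TMM scaling, against 33.6 to 65.0 CPM in the 5 uninduced libraries. The groups did not overlap, but the difference did not pass the test (log2 fold change 0.40, SE 0.30, edgeR adjusted p = 0.449). Between 99.9% and 100% of allelic Xist fragments were Dom in each of the 4 libraries. Deleted sequence gives no fragments and was not corrected for, and gene counts show neither the deletion nor the point mutation. Spen itself stood at 864, 557, 512 and 512 CPM in A8, G3, D9 and H1 (adjusted p = 0.142).

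With the Polycomb-recruiting region removed, the Dom share of X genes stood near its level before induction. The Dom share, Dom fragments divided by Dom plus Cast, had a median over the 246 X genes of the deposited ratio table of 49.6% in A8 and 50.8% in G3, against 33.1% in D9 and 33.8% in H1. Both DelPID_SPOC libraries were higher than both SPOC libraries. The group means were 50.2% ± 0.799 (SD, n = 2) and 33.5% ± 0.498 (SD, n = 2), a difference of 16.7 points. The exact two-sided permutation test over the 4 libraries gave p = 0.333, the smallest that 6 splits allow, so this test cannot reach 0.05. Pooled over genes, the Dom share was 49.5% and 51.0% in DelPID_SPOC against 37.2% and 38.7% in SPOC.

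**Figure D1:**
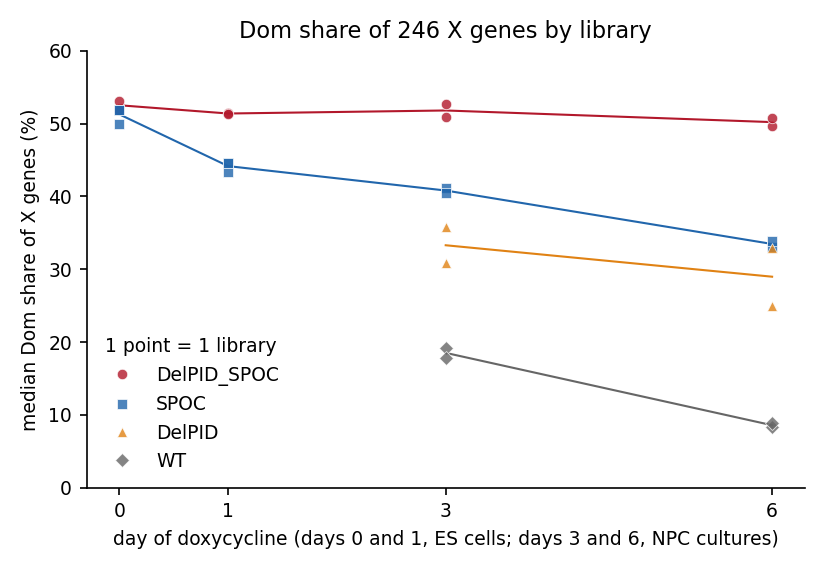
Median Dom share over the 246 X genes (y axis, percent) in each library (points) by day of doxycycline (x axis), with lines through the group means. DelPID_SPOC stays between 49.6% and 53.1% on all days, while SPOC falls from 50.0-51.9% on day 0 to 33.1-33.8% on day 6. WT and DelPID have NPC libraries only.

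Before induction the lines stood close together. At day 0 the medians were 53.1% and 51.9% in DelPID_SPOC A8 and G3 and 51.9%, 50.0% and 51.9% in SPOC C11, D9 and H1 (difference of means 1.24 points, exact permutation p = 0.5). On day 1 in ES cells DelPID_SPOC was 7.22 points higher (exact permutation p = 0.1, the smallest possible), and on day 3 of NPC culture 10.99 points higher (exact permutation p = 0.333, the smallest possible). The medians of SPOC thus moved from 51.3% on day 0 through 44.2% and 40.8% to 33.5%, and those of DelPID_SPOC from 52.5% through 51.4% and 51.8% to 50.2%. Single genes gave the same order. At day 0, 1 of 246 X genes had a higher Dom share in DelPID_SPOC and 2 a lower one (edgeR on allele counts, adjusted p under 0.05, where 2.47% of all 11838 genes were called higher), and 59 X genes were higher on day 1 (3.1% of all genes) and 82 on day 3 (2.86% of all genes).

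At NPC day 6, 120 of 246 X genes had a higher Dom share in DelPID_SPOC and none had a lower one. Over the 11838 genes of this fit, 3.08% were called higher and 3.89% lower. Without adjustment, 171 X genes had a p under 0.05. The median difference over the X genes was 15.5 points, with quartiles of 7.10 and 27.7 points. On the scale of the log2 odds of Dom against Cast fragments it was 0.96, and the median over 11592 autosomal genes was 0.00. In 189 X genes both DelPID_SPOC libraries were higher than both SPOC libraries, in 8 both were lower, and in 49 the groups overlapped. Both were higher in 21.2% of all genes of the fit. A fit to the 4 day 6 libraries alone called 77 X genes higher. Of the 246 genes, 238 had at least 10 allelic fragments in over 80% of the 18 libraries of the fit.

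**Figure D2:**
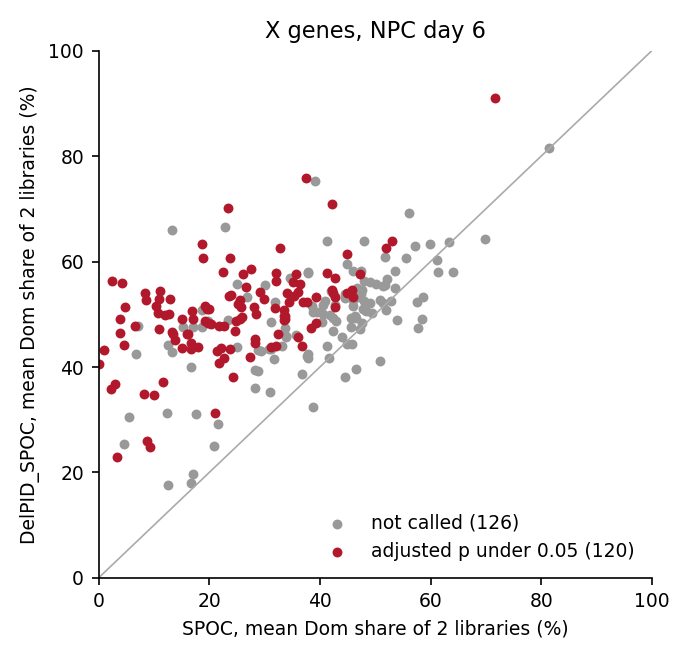
Mean Dom share of each of the 246 X genes in SPOC (x axis, percent) and DelPID_SPOC (y axis, percent) at NPC day 6, means of 2 libraries each. Red points are the 120 genes with an adjusted p under 0.05, all above the line of equal shares, and grey points are the other 126.

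Most genes with the largest rise had a low Dom share in SPOC. With DelPID_SPOC medians averaging 50.2%, a ranking by difference favours such genes, so this is a description of the ranking. By the naming rule, the 12 largest rises were taken from 96 genes with an adjusted p under 0.05, groups that did not overlap and at least 50 allelic fragments in each library. Zc3h12b, a zinc finger protein of a ribonuclease family (chrX:95711677-95927970, plus strand), had a Dom share of 53.0% in A8 and 59.1% in G3, and of 7.41% in D9 and 1.16% in H1, where 6 of 81 and 1 of 86 allelic fragments were Dom. Its difference of 51.7 points was the largest of the 12 (log2 odds 4.82, SE 0.40, adjusted p = 2.57e-06). Msn, which encodes moesin, a linker of actin and the plasma membrane (chrX:96096044-96168553, plus strand), had 51.5% and 51.3% against 6.25% and 3.43% (log2 odds 4.33, SE 0.24, adjusted p = 7.49e-08). These neighbours lie 7.65 and 7.34 Mb from Xist, between midpoints.

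Genes close to Xist were among the largest rises. Phka1, a subunit of phosphorylase kinase 0.893 Mb from Xist, had a Dom share of 47.0% in A8 and 48.5% in G3 against 8.10% in D9 and 4.88% in H1 (adjusted p = 7.49e-08). Hdac8, a class I histone deacetylase 1.08 Mb from Xist, had 48.8% and 51.4% against 14.1% and 11.2% (adjusted p = 5.49e-07). In both genes each DelPID_SPOC value exceeded each SPOC value. Farther away, Mtmr1, a phosphoinositide phosphatase, had 54.7% and 54.1% against 10.3% and 11.9%. Its neighbour Cd99l2, a membrane protein, had 51.5% and 48.9% against 12.0% and 9.57%. Aff2, a nuclear protein of the AF4 family, had 47.0% and 58.7% against 13.3% and 8.60%. The DelPID_SPOC clones differed most from each other in Aff2 and in Gm6938, at 68.9% and 82.7% against 36.1% and 38.7%. Fhl1, a LIM domain protein, had 63.6% and 57.8% against 19.6% and 17.97%. Prrg1, a membrane protein with a Gla domain, had 52.2% and 53.5% against 15.4% and 10.5%. The transcript 2610018G03Rik had 50.9% and 43.5% against 12.0% and 9.76%.

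The 4 smallest changes among the 90 genes with at least 200 allelic fragments per library were found in Hdac6, Rpl10, Idh3g and Usp9x, the last 3 of which kept over 90% of their day 0 Dom share in SPOC. Hdac6, a cytoplasmic deacetylase, had Dom shares of 43.3% and 40.2% in A8 and G3 and of 40.7% and 42.5% in D9 and H1, with overlapping groups. Usp9x, a deubiquitinase with at least 7539 allelic fragments per library, had 51.2% and 53.3% against 50.5% and 52.4% (log2 odds 0.04, SE 0.08). Idh3g, a subunit of mitochondrial isocitrate dehydrogenase, had 49.6% and 50.8% against 49.0% and 49.8%. Rpl10, a ribosomal protein with many processed copies in the genome, had 60.03% and 67.6% against 60.9% and 65.8%.

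**Figure D3:**
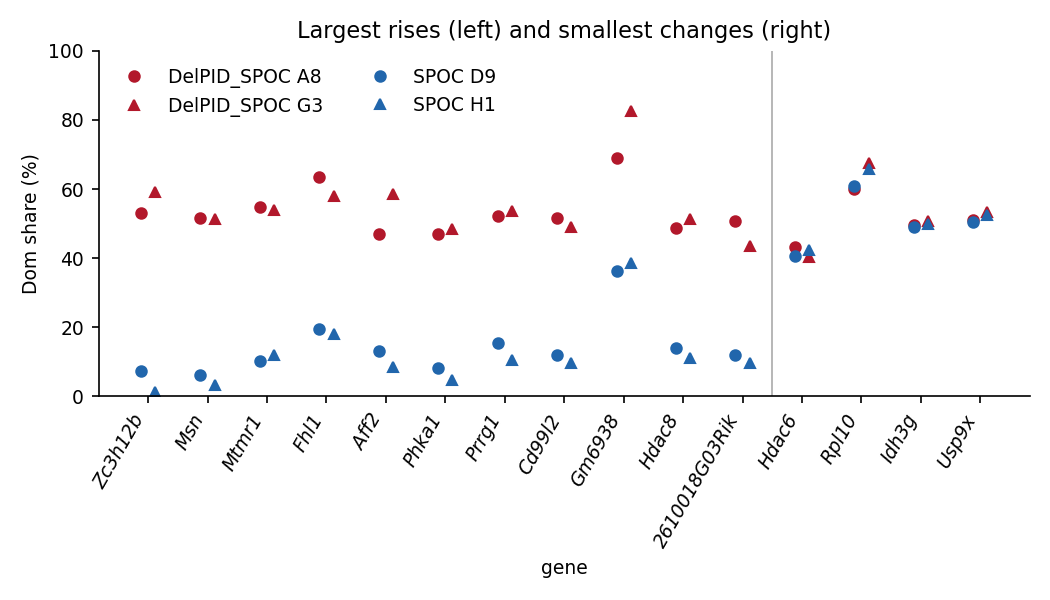
Dom share (y axis, percent) of 11 X genes among the 12 with the largest rise (left of the line) and the 4 with the smallest change (right of it), by library. In each of the 11 genes both DelPID_SPOC libraries (red) lie above both SPOC libraries (blue), while the 4 genes on the right lie between 40.2% and 67.6% in all libraries.

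Set against their own day 0, many X genes had lost Dom share in SPOC and few in DelPID_SPOC. Against their ES libraries before induction, 131 of 246 X genes had a lower Dom share in SPOC at NPC day 6, with a median log2 odds change of -1.10 (2.17% of all genes were called lower). In DelPID_SPOC 2 X genes were lower, with a median of -0.11 (0.152% of all genes called lower, and 28 X genes with an unadjusted p under 0.05). The difference of these changes was tested directly: 65 X genes fell less in DelPID_SPOC than in SPOC and none fell more, where 0.574% of all genes were called in the same direction. The median difference was 0.98. Without the ES libraries labelled D9 the count was 61, and without the NPC library labelled D9 it was 49. As a share of day 0, the median X gene kept 64.9% of its Dom share in SPOC (quartiles 41.0% and 85.1%) and 96.8% in DelPID_SPOC (quartiles 89.3% and 102%). In SPOC 87 genes kept under 50% of it, and in DelPID_SPOC no gene did.

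The 2 genes that fell in DelPID_SPOC were Awat2 and 4930519F16Rik. Awat2, an acyltransferase of wax synthesis with 29 to 99 allelic fragments in each of the 4 libraries, had a Dom share of 58.3% and 56.8% at day 0 and of 35.4% and 34.1% at NPC day 6 in A8 and G3, and of 10.3% and 9.68% in D9 and H1. 4930519F16Rik had 36.9% and 32.7% at day 0 and 17.8% and 18.4% at NPC day 6 in A8 and G3, and 17.9% and 15.4% in D9 and H1. In the latter gene the groups overlapped. In total, 9 genes had a Dom share under 25% in A8 or G3, among them Stard8 at 20.1% and 25.8%, Mtap7d3 at 22.5% and 29.4% and Nap1l2 at 27.4% and 23.5%. Mtap7d3 and Stard8 also lay low at day 0, at 17.9% and 25.2% and at 34.6% and 36.1%.

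Of the genes with at least 50 allelic fragments in each library, 8 were under 10% Dom in both SPOC libraries, among them Mtap7d3, Zc3h12b, Msn, Stard8, Eda, Nhsl2 and Phka1. Their DelPID_SPOC values ran from 20.1% to 59.1%, with a median of the means of 42.2% against 5.66% in SPOC. Eda, the ligand ectodysplasin, had 36.3% and 37.3% in A8 and G3 against 3.85% and 2.08% in D9 and H1, with 1439 or more allelic fragments per library, and 47.5% and 47.6% at day 0. At the other end, 37 such genes kept over 90% of their day 0 share in SPOC, and their median Dom share was 49.4% there and 53.7% in DelPID_SPOC.

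The rise was larger in genes with a low Dom share at NPC day 3 in cells with intact Xist and SPEN. WT has no day 0 library here, so early loss and a low starting share are not told apart. The 246 genes were divided into 3 classes of 82 by their Dom share in WT at NPC day 3, libraries that are not part of the comparison, a division chosen after seeing the data. In the lowest class, with at most 13.2% in WT, the median Dom share was 46.0% in A8 and 48.3% in G3 against 17.8% in D9 and 16.7% in H1, and 54 of 82 genes were called higher. In the middle class it was 48.4% and 50.7% against 33.2% and 34.0%, with 44 of 82 called. In the highest class it was 53.0% and 54.4% against 44.0% and 47.3%, with 22 of 82 called. The Spearman correlation between the WT day 3 share and the rise in points was -0.54 across the 246 genes. When the same was done by distance, the farthest 82 genes, 61.9 to 97.4 Mb from Xist, differed by a median of 9.04 points (23 of 82 called), against 19.5 points (49 of 82) in the nearest class and 22.1 points (48 of 82) in the middle one. The 82 genes with the highest day 0 level were called more often, 57 against 25 of the lowest 82, but their median rise was smaller, 14.4 against 20.7 points, and they have more fragments. These are descriptions across genes, which share libraries and are not independent replicates.

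Genes known to escape X inactivation were few in the ratio table. Of the 12 listed, 5 had a deposited ratio and 1 was called higher, with a median difference of 4.48 points, against 120 of 246 and 15.5 points over all X genes with a ratio. With 5 genes this is no more than a description. Firre, a long noncoding RNA gene, had 57.8% and 57.7% in A8 and G3 against 33.2% and 38.3% in D9 and H1 (log2 odds 1.30, SE 0.10, adjusted p = 1.68e-06). Kdm6a, an H3K27 demethylase, had 56.1% and 57.2% against 51.4% and 53.0% (adjusted p = 0.0725). Ddx3x, an RNA helicase, had 50.6% and 53.6% against 49.6% and 48.7%, and Eif2s3x, a translation factor subunit, 45.9% and 52.8% against 42.4% and 42.2%. Neither of the latter pair passed the test. Utp14a, of ribosome biogenesis, overlapped at 63.4% and 57.3% against 63.4% and 58.9%.

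X-linked chromatin regulators and regulators of pluripotency were examined as lists. Of 17 chromatin regulators with a ratio, 6 were called higher, with a median difference over the list of 7.37 points, against 120 of 246 and 15.5 points over all X genes with a ratio. Phf6, a chromatin reader, had a Dom share of 44.2% and 48.4% in A8 and G3 against 12.7% and 14.1% in D9 and H1. Hmgb3, a high mobility group protein, had 46.2% and 49.3% against 22.6% and 20.8%. Taf1, the largest TFIID subunit, had 42.4% and 45.7% against 36.0% and 37.4% (adjusted p = 0.0155), and Ogt, the O-GlcNAc transferase, 50.5% and 51.5% against 47.2% and 48.5% (adjusted p = 0.315). Of 9 regulators of pluripotency and MAPK signalling with a ratio, 4 were called higher, with a median of 10.3 points. Neither list's share of calls was above that of all X genes. Nr0b1, also known as Dax1, had 43.6% and 42.5% against 19.1% and 23.8% (adjusted p = 0.00724). Klhl13, a ubiquitin ligase adaptor, had 31.4% and 31.4% against 19.4% and 22.8% (adjusted p = 0.0137). In the X inactivation centre, Chic1 had 54.3% and 54.7% against 41.7% and 42.6% (adjusted p = 0.00243). Tbl1x, a subunit of the NCoR complex, had 51.1% and 57.1% against 41.9% and 42.6% (adjusted p = 0.000206).

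The rise in Dom share came with more RNA from the Dom X and a nearly level amount from the Cast X. Scaled to all fragments of the library, Dom RNA was higher in DelPID_SPOC in 90 of 246 X genes and lower in 1 (3.02% of all genes called higher and 2.36% lower), with a median log2 fold change of 0.83. Cast RNA was higher in 3 and lower in 7 (3.68% called higher and 2.07% lower), with a median of -0.11, against -0.07 in autosomal genes for either allele. Msn gave 21.6 and 20.2 Dom CPM in A8 and G3 against 1.60 and 0.744 in D9 and H1, while its Cast RNA was 20.4 and 19.1 against 24.0 and 20.9 CPM. Hdac8 gave 43.1 and 32.8 Dom CPM against 5.598 and 4.65, with Cast RNA at 45.2 and 31.0 against 34.1 and 36.8 CPM. In Hdac6, whose share was level, both alleles were higher (log2 fold change 0.82 for Dom, adjusted p = 0.0503, and 0.80 for Cast, adjusted p = 0.0421). Without the library labelled D9 the count of genes with more Dom RNA was 59, and without H1 it was 51. The count of genes with less Cast RNA was 11 without A8, 1 without G3 and 2 without either SPOC library.

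**Figure D4:**
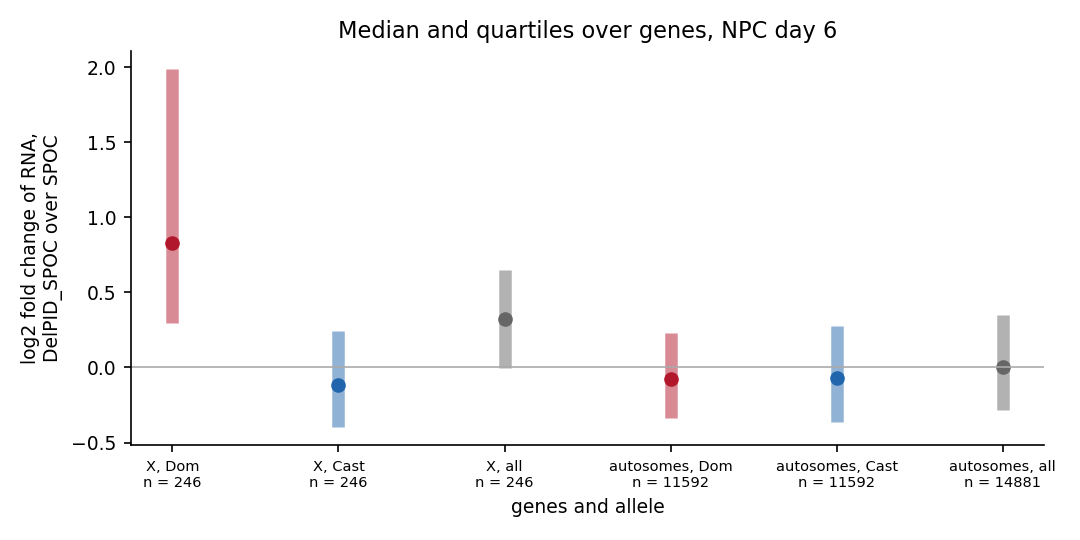
Median (points) and quartiles (bars) of the log2 fold change between DelPID_SPOC and SPOC at NPC day 6 (y axis) for Dom, Cast and all fragments of X and autosomal genes (x axis). Dom RNA of the X stands apart at a median of 0.83, and Cast RNA of the X lies at -0.11, near the autosomal medians of -0.07.

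Total RNA of X genes was higher as well. Of the 246 genes, 40 were higher and 5 lower by total fragments (of all 15475 genes 4.23% were called higher and 2.44% lower), with a median log2 fold change of 0.32. The other 347 X genes of the fit, which are not in the ratio table, had a median of 0.73, with 71 higher and none lower. Set against their own day 0, 25 of the 246 genes changed more positively in DelPID_SPOC and 2 more negatively, with a median of 0.23. Of the other 347 X genes, 33 did so and 2 the reverse, with a median of 0.66. Over all 15475 genes these counts were 280 and 246. The 5 genes of the 246 that were lower at day 6 were Med14, Kdm6a, Wdr44, Tmem47 and Pola1, chosen here after their values were seen. Med14, a Mediator subunit, fell in both Cast and Dom RNA (log2 fold change -0.78, adjusted p = 0.00744, and -0.53, adjusted p = 0.0441). Kdm6a stood at 554 and 482 CPM in A8 and G3 against 728 and 780 in D9 and H1 (log2 fold change -0.54, SE 0.11, adjusted p = 0.0137). These counts rested on the other days for their error: the 4 libraries alone called 0 of the 246 X genes higher and 2 genes in all, and the count of X genes higher was 23 without G3, 16 without D9 and 6 without H1. Over all genes 1031 were called, and 407, 323 and 140 without these libraries in turn.

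The 8 largest rises in total RNA named by the rule, among genes with a call and a mean of at least 5 CPM in the higher group, were on the X in 7 cases. Of all 15475 genes tested 593 were on the X, and of the 654 called higher 111 were. Several of the 8 met the CPM minimum only through DelPID_SPOC, so the number on the X is a description. Usp26, a deubiquitinase gene known for expression in testis, stood at 272 and 281 CPM in A8 and G3 against 14.1 and 10.6 in D9 and H1 (log2 fold change 4.48, SE 0.20, adjusted p = 3.59e-08). It was already higher before induction, at 422 and 456 CPM against 67.0, 53.7 and 80.9 in C11, D9 and H1. Scml2, a germline protein related to Polycomb group proteins, stood at 140 and 413 CPM against 21.4 and 23.5 (adjusted p = 0.00293), and at day 0 at 224 and 441 against 115, 92.7 and 64.5. Rhox5, a homeobox gene of the Rhox cluster, stood at 77.7 and 37.6 CPM against 2.80 and 1.30 (adjusted p = 0.0088), and Nxf3, of the RNA export factor family, at 59.5 and 50.1 against 7.04 and 6.98 (adjusted p = 0.000343). Luzp4 stood at 2.74 and 12.9 CPM against 0.24 and 0, where H1 had no fragment and D9 had 3. Otud6a, AU022751 and the interferon-inducible Irgm2 of chromosome 11 complete the 8. Set against their own day 0, the change was more positive in DelPID_SPOC than in SPOC for Usp26 (difference of log2 changes 1.77, adjusted p = 0.00651), Luzp4 (5.44, adjusted p = 0.03) and AU022751 (3.64, adjusted p = 0.0286), and this difference did not pass the test for the other 5. Luzp4, Rhox5, Scml2, AU022751, Irgm2 and Otud6a lost the call in at least 1 alternative, with adjusted p up to 0.11.

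The 8 largest falls were autosomal, with Sult5a1 and Atp2c2 on chromosome 8 and Snhg9 on chromosome 17. On chromosome 8, 39 of 819 genes were called lower and 2 higher. Enpp2, the lysophospholipase autotaxin, stood at 15.2 and 8.08 CPM in A8 and G3 against 59.98 and 67.1 in D9 and H1 (log2 fold change -2.44, SE 0.33, adjusted p = 0.000844), from under 1 CPM in every uninduced library. Hs3st5, a heparan sulfate sulfotransferase, stood at 26.5 and 13.0 CPM against 101 and 125 (adjusted p = 0.0164). Snhg9, a host gene of small nucleolar RNA, stood at 29.3 and 35.9 CPM against 111 and 185 (adjusted p = 0.00472). Krt8, a keratin, Ap1m2, an epithelial adaptor subunit, Sult5a1, Atp2c2 and Lgr6, a receptor of R-spondins, were lower with means under 15 CPM in either group. The change from day 0 was more negative in DelPID_SPOC than in SPOC for Enpp2 (difference of log2 changes -4.74, adjusted p = 0.00651) and Hs3st5 (-2.84, adjusted p = 0.0487). For Enpp2 this value also rests on day 0 levels near the floor. They were 0.898 and 0.674 CPM in A8 and G3 against 0.125, 0.121 and 0.204 in C11, D9 and H1. The difference of log2 changes did not pass the test for Krt8, Ap1m2, Atp2c2 and Lgr6 (adjusted p = 0.307, 0.196, 0.234 and 0.238). All 8 lost the call in the fit to the 4 libraries alone, and their adjusted p reached up to 0.34 over the alternatives.

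Part of the differences in total RNA lay on whole chromosomes that also differed in Dom share. On chromosome 11 the median Dom share was 34.8% in A8 and 35.9% in G3 against 49.1% in D9 and 49.0% in H1, with a median log2 fold change of total RNA of 0.44. On chromosome 18 it was 71.0% and 68.4% against 53.7% and 54.2%, also with 0.44. On chromosome 8 it was 50.2% in G3 and 34.8%, 35.2% and 35.2% in A8, D9 and H1, with a median log2 fold change of -0.23. The chromosome 11 and 18 shares were the same sort at day 0, at 35.3% and 35.5% and at 68.9% and 68.9% in DelPID_SPOC. Chromosome 11 held 402 of the 460 genes with a lower Dom share and 259 of the 654 genes with more total RNA. Chromosome 18 held 202 of the 365 genes with a higher Dom share, beside the 120 on the X. On autosomes other than 8, 11, 17 and 18, 41 of 9069 genes had a higher and 49 a lower Dom share, and 180 of 11662 had more and 317 less total RNA. Copy number was not measured here, and whether chromosome content altered X-linked RNA was not tested.

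**Figure D5:**
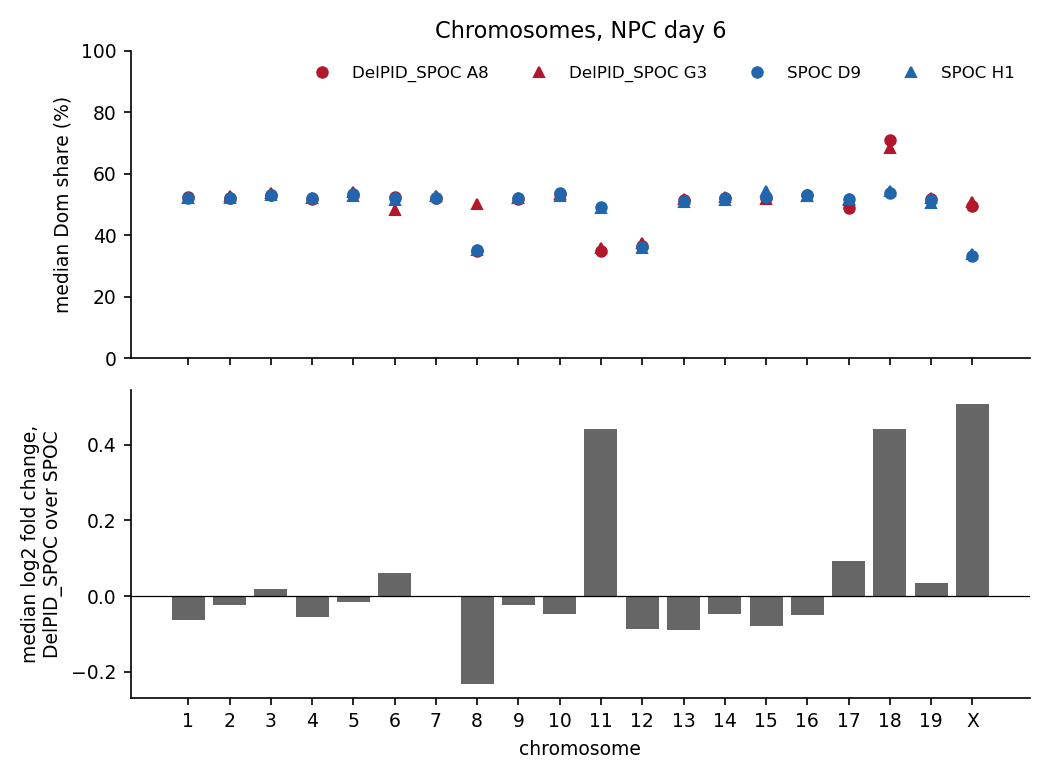
Median Dom share by chromosome and library (top, percent) and median log2 fold change of total RNA between DelPID_SPOC and SPOC (bottom) at NPC day 6. The X differs between the groups in Dom share, as do chromosomes 11 (near 35% against 49%) and 18 (near 70% against 54%), and chromosome 8 is at 50.2% in G3 alone.

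The lists of silencing factors showed few differences in total RNA, where 4.23% of all genes were called higher. Of 9 genes of SPEN and its corepressor, 2 were higher and none lower: Ncor1 at 1764 and 1486 CPM in A8 and G3 against 737 and 782 in D9 and H1 (adjusted p = 0.00121), and Gps2 at 16.3 and 13.3 against 6.16 and 5.30 (adjusted p = 0.00666). Both lie on chromosome 11, and Ncor1 was already at 1557 and 1660 CPM against 719, 763 and 590 at day 0. Gps2 stood at 5.46 and 5.32 CPM at day 0 against 6.57, 4.91 and 4.22 in C11, D9 and H1. The difference of log2 changes from day 0 was 1.33 for Gps2 (edgeR adjusted p = 0.0488) and -0.12 for Ncor1 (adjusted p = 0.784). Of 30 tested PRC1, PRC2 and Xist partner genes, Pcgf2, also on chromosome 11, and Yaf2 were higher (adjusted p = 0.0493 and 0.0272) and none was lower, with a median log2 fold change of 0.02. Pcgf3 stood at 74.9 and 88.8 CPM against 83.6 and 77.4, Pcgf5 at 30.4 and 40.3 against 39.9 and 38.5, and Hnrnpk at 253 and 244 against 309 and 249, with overlapping groups for all 3. Of 28 X chromatin regulators, 6 were higher in total RNA (Phf6, Hdac6, Hdac8, Brwd3, Msl3 and Hmgb3) and 1 was lower (Kdm6a), against 111 and 5 of all 593 X genes tested. Hmgb3 stood at 39.9 and 30.3 CPM against 16.4 and 13.3 (adjusted p = 0.00197), and Msl3, of the MSL acetyltransferase complex, at 21.1 and 20.9 against 11.2 and 10.98 (adjusted p = 0.00307).

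Both pluripotency genes and part of the neural progenitor list were expressed in all 4 cultures. The 13 naive pluripotency genes summed to 1213 and 1448 CPM in A8 and G3 against 917 and 1231 in D9 and H1, and the 23 neural progenitor genes to 1116 and 1277 against 978 and 1226. Of the neural list, the adhesion molecules Ncam1 and Cdh2 lay between 573 and 867 CPM and between 78.9 and 168 CPM, and were also expressed at day 0. Hes5, Fabp7, Olig2 and Neurog2 were at most 0.40 CPM in each library. Pax6, a neural transcription factor, lay between 4.74 and 10.7 CPM, against 0.775 to 4.41 at day 0. Sox1 and Sox2 were listed at 0, also at day 0, where ES cells use Sox2, so these entries were not read as levels. Pou5f1, the pluripotency factor Oct4, stood at 84.1 and 78.8 CPM in A8 and G3 against 74.7 and 62.6 in D9 and H1 (adjusted p = 0.362). Of 13 naive pluripotency genes 3 were higher in DelPID_SPOC (Klf2, Dppa3 and the X-linked Nr0b1, against 4.23% of all genes) and none lower, with a median log2 fold change of 0.57. Nanog stood at 43.5 and 79.9 CPM against 30.6 and 34.8 (adjusted p = 0.0831). Of 15 tested neural progenitor genes, Vim and the X-linked Sox3 were higher and none lower. Vim, a mesenchymal and neural intermediate filament, stood at 46.6 and 63.1 CPM against 16.6 and 14.4 (adjusted p = 0.0201). None of 12 core and formative, 7 neuronal, 6 other lineage and 9 feeder fibroblast genes passed the test, with median log2 fold changes of -0.31, 0.08, 0.22 and 1.85. All 9 feeder genes had positive values, and that median was the highest of the lists. Col1a2, a fibrillar collagen, stood at 2.85 and 5.72 CPM in A8 and G3 against 1.92 and 0.372 in D9 and H1 (adjusted p = 0.123). Col3a1, another collagen, stood at 0.698 and 4.34 CPM against 0.88 and 0.279 (adjusted p = 0.417). Only Fn1 exceeded 6 CPM, the list summed to 465 and 697 CPM against 422 and 578, and Col1a1 lay between 0.093 and 0.92 CPM. The part of these differences in the X-linked results was not tested.

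The comparison of DelPID with WT, the same deletion with an intact SPOC domain, gives the scale of the difference. At NPC day 6 the median Dom share was 8.33% and 8.86% in WT and 25% and 33.0% in DelPID, the first library of which had 2.29 M fragments. The second DelPID library also differed from the second WT library on chromosomes 11 (37.2% against 52.9% Dom) and 18 (77.0% against 53.35%). The effects below are therefore differences between lines, and the part of chromosome content in them was not tested. In a fit to all 58 libraries, 182 of 246 X genes had a higher Dom share in DelPID than in WT (5.53% of all genes called higher). In DelPID_SPOC against SPOC 109 were higher (3.19% of all genes), and the median log2 odds were 2.14 and 0.96. The difference between these effects, tested as an interaction, was negative in 45 X genes and positive in none, with a median of -1.11 (0.819% of all genes were called negative). In points the effects were more alike, with medians of 18.5 without and 15.5 with the mutation. In points 107 of 246 genes rose more with the mutation and 139 less, while in log2 odds the difference was positive in 34. The direction of some genes thus depended on the scale. On shares limma called 41 genes smaller and 31 larger with the mutation. That fit was adjusted over the 246 X genes only and did not weight by depth. Its calls therefore differ from those of edgeR in test and adjustment as well as in scale. The interaction was called in 9 X genes without the second DelPID library, and in 27 and 28 without either WT library.

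Ikbkg, the regulatory subunit of the IKK complex, had the most negative interaction among the 35 genes that met the naming rule, while called genes below its depth minimum had values down to -4.99 (Pgrmc1). Its Dom share was 4.23% and 7.27% in WT, 21.6% and 36.4% in DelPID, 35.3% and 36.8% in SPOC D9 and H1, and 44.1% and 47.3% in DelPID_SPOC A8 and G3 (log2 odds -2.53, SE 0.40, adjusted p = 0.000207). Tspan7, a tetraspanin, had 8.20% and 7.49% in WT, 43.9% and 51.4% in DelPID, 34.0% and 38.9% in SPOC and 52.6% and 59.1% in DelPID_SPOC (log2 odds -2.36, SE 0.32, adjusted p = 1.47e-05). Zfp280c, a zinc finger protein, had 2.36% and 2.79%, 22.7% and 32.5%, 29.8% and 25.2%, and 57.3% and 59.9% (log2 odds -2.15, SE 0.45, adjusted p = 0.00876). Without the second DelPID library, Ikbkg moved to -1.64 and lost the call (adjusted p = 0.532), while Tspan7 kept it at -2.05 (adjusted p = 0.0134). Zfp280c lost the call without that library (adjusted p = 0.53), without the first WT library (adjusted p = 0.103) and without SPOC D9 (adjusted p = 0.0601). In all 3 genes the DelPID_SPOC values were the highest of the 4 lines. Zfp280c rose by more points with the SPOC mutation than without it. None of the 12 largest rises above passed the interaction test. Msn, for example, had 1.26% and 1.06% in WT and 14.1% and 38.2% in DelPID (log2 odds -1.06, adjusted p = 0.763).

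Fragments from the part of the X more than 1 Mb beyond Xist were nearly all Cast in each library. The study names a recombination event in the parental line and does not treat that line as informative over the whole X. The shares below are therefore not a measure of silencing. The Dom share there was 1.10% in A8, 1.93% in G3, 0.922% in D9 and 0.830% in H1. The lines differed before induction too, at 1.24% and 1.12% in A8 and G3 on day 0 against 0.795%, 0.737% and 0.735% in C11, D9 and H1.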

How the data were processed

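Chromatin-associated RNA was sequenced by the authors with a stranded kit. According to the labels and methods, ribosomal reads were removed with Bowtie2 2.3.2, pairs were aligned with STAR 2.4.2a to mm10 with strain differences masked, split by allele with SNPsplit and assigned to genes by featureCounts with strand taken into account. The deposited counts are raw: all fragments, Cast and Dom fragments of 22556 genes per library. A deposited ratio table gives, as a fraction, Dom over Dom plus Cast for 246 X genes that had passed the authors' filters. Recomputed from the counts it differed by at most 5e-16, and 54 of its columns were not used.

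Dom against Cast counts were tested with edgeR 4.0.16 (quasi-likelihood, a term per library and a Dom term per group) over 18 libraries of both lines, for the 246 genes and 11592 autosomal genes with at least 10 allelic fragments in over 80% of libraries and a day 0 Dom share between 0.1 and 0.9. The interaction used all 58 libraries. Total counts were tested with edgeR after filterByExpr and TMM, and Dom or Cast RNA with the same library sizes. P-values were adjusted over all genes by Benjamini-Hochberg at 0.05. limma 3.58.1 and DESeq2 1.42.0 served as alternatives, and limma on Dom shares was fitted to and adjusted over the 246 X genes only. Replicates are single clones, so p-values measure spread among these cultures. Genes named were, for shares, those with the largest difference among adjusted p under 0.05, no overlap and 50 or more allelic fragments per library, 4 with the smallest difference among those with 200 or more, and, for total RNA, 8 per direction with a mean of at least 5 CPM. Members of fixed gene lists are named besides. A gene that met the rule is not reported here. The groups, lists and rules were chosen with earlier results of these data known. Clones pair the days of a line. Over 246 genes, the deviations of a clone from its group correlated between day 0 and day 6 by 0.0770 for A8 and G3, -0.0291 for D9 and 0.0815 for H1. These pairs follow the labels, which the autosomal Dom shares did not bear out for D9.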

Additional observations from a re-analysis of the deposited data

Results flagged for a closer look

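A test of the difference itself set 2 groups of results apart. The deletion raised the log2 odds of Dom RNA less with the SPOC mutation than without it in 45 X genes, among them Ikbkg (-2.53), Tspan7 (-2.36) and Zfp280c (-2.15). Ikbkg and Zfp280c lost the call without the second DelPID library, at -1.64 (adjusted p = 0.532) and -1.60 (adjusted p = 0.53), and the Zfp280c value also lost it without the first WT library or SPOC D9. The Dom share fell less from day 0 to NPC day 6 in DelPID_SPOC than in SPOC in 65 X genes.

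Outside the genes with a deposited ratio, the stretch of the X more than 1 Mb beyond Xist had a Dom share of 1.10% in A8 and 1.93% in G3, above both SPOC libraries, at 0.922% and 0.830%. DelPID, without the SPOC mutation, had 1.67% and 3.96% at NPC day 6 and WT 1.05% and 1.03%. The gap was present before induction, with 1.24% and 1.12% in DelPID_SPOC against 0.735% to 0.795% in SPOC on day 0. The study does not treat the parental line as informative over the whole X, so these small shares do not measure silencing. Their source was not tested.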

How the results depend on the processing

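Leaving out 1 library at a time moved the difference of library medians between 16.2 and 17.3 points, the X genes with a higher Dom share between 87 and 100, those with a smaller fall from day 0 between 49 and 63, those with more Dom RNA between 51 and 74, those with less Cast RNA between 1 and 11, those with more total RNA between 6 and 27, all genes called by total RNA between 140 and 836, and the interaction between 9 and 49. With only the 4 day 6 libraries, 77 X genes had a higher Dom share, and by total RNA 2 genes in all and 0 of the 246 X genes were called, where 2843 of 14108 genes had an unadjusted p under 0.05. By total RNA DESeq2 called 1614 genes, all 58 libraries called 25 X genes higher, and outside chromosomes 8, 11, 17, 18 and X 497 genes remained, a restriction chosen after seeing the data. Zfp280c changed sign in limma on shares, at 0.0605, without a call. With the clone as a replicate block, limma called 62 X genes with a smaller fall from day 0, and 66 without the block. The pairing by label thus moved this count by less than 1.5 times. The D9 block joined ES and NPC libraries whose autosomal Dom shares did not match, so the count does not show what a correct pairing would do. The other comparisons set different clones against each other, and no blocked fit was run for them. The alternatives without the ES libraries labelled D9, also chosen after seeing the data, gave 116 and 61 X genes. Where 1 library of a group remained, it was assumed to vary like the other groups, and the interaction fits without a library kept the dispersions of the full fit. The genes with the largest rises in Dom share by the naming rule kept their calls in all 120 combinations of gene and alternative. Genes from the fixed lists with a share call, such as Taf1, Klhl13, Nr0b1, Chic1, Tbl1x and Firre, were not followed through the alternatives. The causes of the changes between alternatives were not tested. Depth limits single genes most in H1, where 17 of 246 genes had under 10 allelic fragments.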
